A study of Homo sapiens with 36 samples.

Results

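The 3 peroxisome proliferator-activated receptors and 6 of their classical targets in fatty acid oxidation and lipid handling were followed in human endothelial cells given PFOA (perfluorooctanoic acid), a fluorinated fatty acid analogue that persists in the environment and in the body. The genes were taken by name. They are PPARA, PPARD, PPARG, ANGPTL4, CPT1A, CPT2, ACADVL, HADHA and PLIN2, that is 9 of the 18048 genes with values. The cells were EA.hy926, a hybrid line made by fusing umbilical vein endothelial cells with a lung carcinoma line, so every group shares 1 clonal hybrid background. The 36 libraries form 12 groups, each with 3 biological replicates. In the short experiment the cells received PFOA for 48 h at 1, 10 or 100 µM, and in the long experiments for 6 or 12 weeks at 1, 10 or 100 nM. Each of the 3 exposure times had its own vehicle group with 0.05% DMSO, and the treated groups carried the same solvent. Short-exposure cells were lysed in the dish and long-exposure cells were collected while being subcultured, so the tables of 48 h and of the weeks differ in harvest as well as in time and dose. In these bulk samples, fewer cells that express a gene and less RNA of it per cell cannot be told apart.

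PPARs are nuclear receptors that bind fatty acids and their derivatives, pair with a retinoid X receptor (RXR) and sit on response elements built from a direct repeat of the hexamer AGGTCA with a single base between the copies. PPARA is the receptor best known from the fasting liver, where it turns on mitochondrial and peroxisomal fatty acid oxidation. PPARD is expressed in most tissues, endothelium included, and PPARG is the master regulator of fat cell differentiation. PFOA resembles a fatty acid and is known as an activator of PPARA, most of all in rodent liver. In endothelial cells ANGPTL4, CPT1A, PDK4 and PLIN2 are commonly read as PPAR targets. The study modelled how the transcriptome responds to PFOA concentration, and the comparison made here asks whether this pathway responded at each dose.

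The genes are spread over the genome, with positions from the RefSeq annotation of GRCh38.p14. PPARA lies at chr22:46150526-46243756, PPARD at chr6:35342558-35428178 and PPARG at chr3:12287368-12434344, all on the plus strand. ANGPTL4 lies at chr19:8364155-8374370, CPT2 at chr1:53196824-53214197 and ACADVL at chr17:7217125-7225266 on the plus strand. CPT1A lies at chr11:68754620-68844277, HADHA at chr2:26190635-26244632 and PLIN2 at chr9:19108388-19127492 on the minus strand. The spans of CPT2, ACADVL and HADHA overlap another protein-coding gene (CZIB, DLG4 and GAREM2, in that order). Those of PPARA and CPT1A overlap a non-coding RNA gene. Whether the counting used strand is not given in the sources used here, so reads of overlapping exons could be shared between such neighbours.

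The promoters were read for the direct repeat because ANGPTL4, ACADVL and HADHA moved together from library to library, while CPT1A moved the other way. The window was 250 bases before to 50 bases after each RefSeq start, and the repeat was searched on both strands as AGGTCA, any base and again AGGTCA. None of the 9 windows held it, nor a version with 1 or 2 mismatches. Of all 27305 promoter windows of this length, 0.0220% held the exact repeat and 2.99% a version with 2 mismatches. The hexamer AGGTCA alone, which is part of that repeat, was found in 13.9% of all windows and in 1 of the 9, that of PPARG. The 250 bases before the start are given 5′ to 3′ on the gene's own strand, with AGGTCA hexamers in capitals. They are shown for the 4 targets whose levels the results turn on and for PPARG as the window with the hexamer.

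ANGPTL4 (chr19:8363905-8364154, plus strand): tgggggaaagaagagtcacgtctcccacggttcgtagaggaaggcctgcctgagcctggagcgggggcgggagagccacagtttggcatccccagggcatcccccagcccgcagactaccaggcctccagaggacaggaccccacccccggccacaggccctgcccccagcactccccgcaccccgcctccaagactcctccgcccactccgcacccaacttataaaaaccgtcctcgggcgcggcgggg
ACADVL (chr17:7216875-7217124, plus strand): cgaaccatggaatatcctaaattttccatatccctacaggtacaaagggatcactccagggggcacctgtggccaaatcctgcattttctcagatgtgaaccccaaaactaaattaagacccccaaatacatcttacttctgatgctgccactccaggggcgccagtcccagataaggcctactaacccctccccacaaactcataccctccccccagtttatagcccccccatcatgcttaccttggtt
HADHA (chr2:26244633-26244882, minus strand): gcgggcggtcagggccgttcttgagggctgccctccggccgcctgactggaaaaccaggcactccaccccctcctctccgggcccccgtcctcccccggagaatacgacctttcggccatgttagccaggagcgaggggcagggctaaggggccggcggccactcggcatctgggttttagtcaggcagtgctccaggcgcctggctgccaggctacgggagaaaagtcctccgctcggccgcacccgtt
CPT1A (chr11:68844278-68844527, minus strand): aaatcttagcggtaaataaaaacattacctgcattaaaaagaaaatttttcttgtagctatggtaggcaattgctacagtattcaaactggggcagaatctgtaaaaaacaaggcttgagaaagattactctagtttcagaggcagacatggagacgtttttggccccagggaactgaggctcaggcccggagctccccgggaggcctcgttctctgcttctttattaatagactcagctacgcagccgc
PPARG (chr3:12287118-12287367, plus strand): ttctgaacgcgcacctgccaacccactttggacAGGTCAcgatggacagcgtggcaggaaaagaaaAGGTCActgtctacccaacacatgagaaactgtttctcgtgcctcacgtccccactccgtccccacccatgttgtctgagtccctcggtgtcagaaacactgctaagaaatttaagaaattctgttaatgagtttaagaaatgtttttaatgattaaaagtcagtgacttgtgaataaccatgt

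The 2 hexamers of PPARG began at positions -217 and -184 relative to the start. The windows differed in base composition, with 85.7% G and C in PPARA, more than in 99.8% of all promoter windows, and 45.0% in PPARG. A match or its absence describes these letters in this window only.

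The deposited values are normalised read counts, that is reads per gene divided by 1 size factor per library. Recovered reads ran from 17815292 to 19466331 per library, and 14192 to 15050 genes had a read. Of 11 endothelial markers, 9 averaged at least 10 over the libraries of each exposure time, and KDR and CLDN5 were near 0. Of 6 epithelial markers 4 did, led by the keratins KRT7, KRT8 and KRT18, while CDH1 was near 0. Libraries of the same group differed in composition. Ribosomal protein genes took 8.73% to 20.6% of the reads and mitochondrially encoded genes 5.35% to 11.6%. The first principal component of the differences between libraries of the same group held 82.1% of that variance at 48 h, 76.5% at 6 weeks and 71.7% at 12 weeks.

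Levels of the 9 genes were compared per kilobase of the longest transcript in GENCODE release 29, as normalised read counts per kb averaged over the 36 libraries. The oxidation enzyme ACADVL stood at 2619 per kb, the secreted lipase inhibitor ANGPTL4 at 1956 and the trifunctional protein subunit HADHA at 1756. These 3 overlapped in their libraries. CPT1A followed at 155 and PPARD at 106, with overlapping libraries, and CPT2 at 44.7. PPARA was low among the receptors at 9.87 per kb. PPARG at 0.58 and PLIN2 at 0.31 were close to the limit of detection. On the scale of normalised read counts per gene, both averaged below 10 in every table, so they are stated as low and were not tested. The other 7 genes averaged above 10 in every table and were tested.

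**Figure D1:**
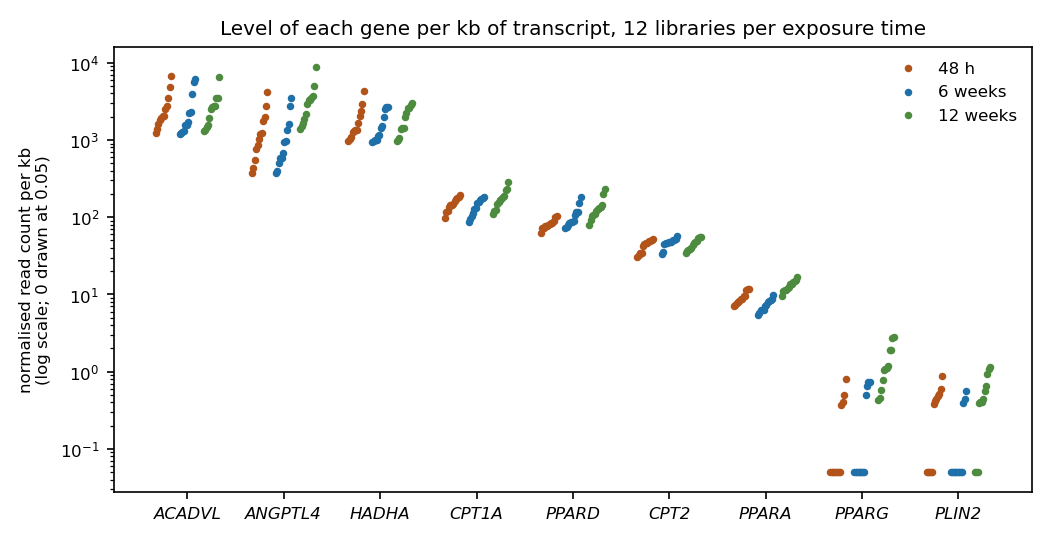
Normalised read count per kb of transcript on a log scale for each of the 9 genes, with 12 libraries per exposure time as points sorted by value. ACADVL, ANGPTL4 and HADHA lie above 300 per kb in every library, PPARA between 5 and 20, and PPARG and PLIN2 have many libraries at 0, drawn at 0.05.

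Among the receptors, PPARD had the most reads per kb. At 48 h its normalised read counts were 315, 339.6 and 395 with vehicle, 379, 289.9 and 292 at 1 µM, 239, 303 and 273 at 10 µM, and 309, 319 and 276 at 100 µM. The 10 µM libraries all lay below the vehicle libraries. On the deposited scale the log2 fold change was -0.36 ± 0.20 (SE, n = 3 each), with an adjusted p of 0.96 in limma, so it did not pass. At 6 weeks PPARD was 685, 331 and 435 with vehicle, 321, 277 and 580.1 at 1 nM, 436, 282 and 325 at 10 nM and 341, 397 and 298 at 100 nM, and every dose overlapped the vehicle. At 12 weeks its libraries ran from 301 to 865, and that whole range was spanned by the vehicle group alone. Of the doses, 10 µM at 48 h was the one without overlap with its vehicle for PPARD on the deposited scale, and no dose passed the test.

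PPARA was measured at low but countable levels, with 33 to 218 reads per library. Its group means at 48 h were 83.2 ± 10.8 with vehicle, 100.1 ± 16.3 at 1 µM, 92.7 ± 21.6 at 10 µM and 90.0 ± 21.9 at 100 µM (SD, n = 3). At 6 weeks they were 66.8 ± 11.1, 68.2 ± 17.4, 81.3 ± 17.9 and 76.1 ± 7.25 from vehicle to 100 nM. At 12 weeks they were 124 ± 12.2, 129 ± 15.7, 147 ± 10.4 and 126 ± 39.4. All doses overlapped their vehicle on the deposited scale. As reads scaled to a common library total (CPM), the 6-week libraries at 10 nM (3.86, 7.15 and 5.93) and 100 nM (5.85, 4.61 and 4.10) lay above vehicle (2.53, 3.04 and 3.03). On that scale the median log2 fold change of all genes was 0.61 at 10 nM and 0.50 at 100 nM. The largest member change at 1 µM was that of PPARA, at 0.26 ± 0.27 on the log2 scale with an adjusted p of 1.0 in limma.

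PPARG gave 0 to 5 reads per library. At 48 h and at 6 weeks 4 of 12 libraries had a read, with at most 2, and 16 of the 36 libraries had none. At 12 weeks each library had 1 to 5 reads, which is a normalised read count of 0.87 to 5.68 in the treated and 0.92 to 5.56 in the vehicle libraries. A count of 0 allows up to 3 reads, which corresponds to 2.21 to 5.56 normalised counts depending on the library and covers counting error only. Differences of PPARG between doses of the same exposure time were not detectable at this depth. Its reads summed to 5 at 48 h, 6 at 6 weeks and 30 at 12 weeks, and this difference between times was not tested.

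**Figure D2:**
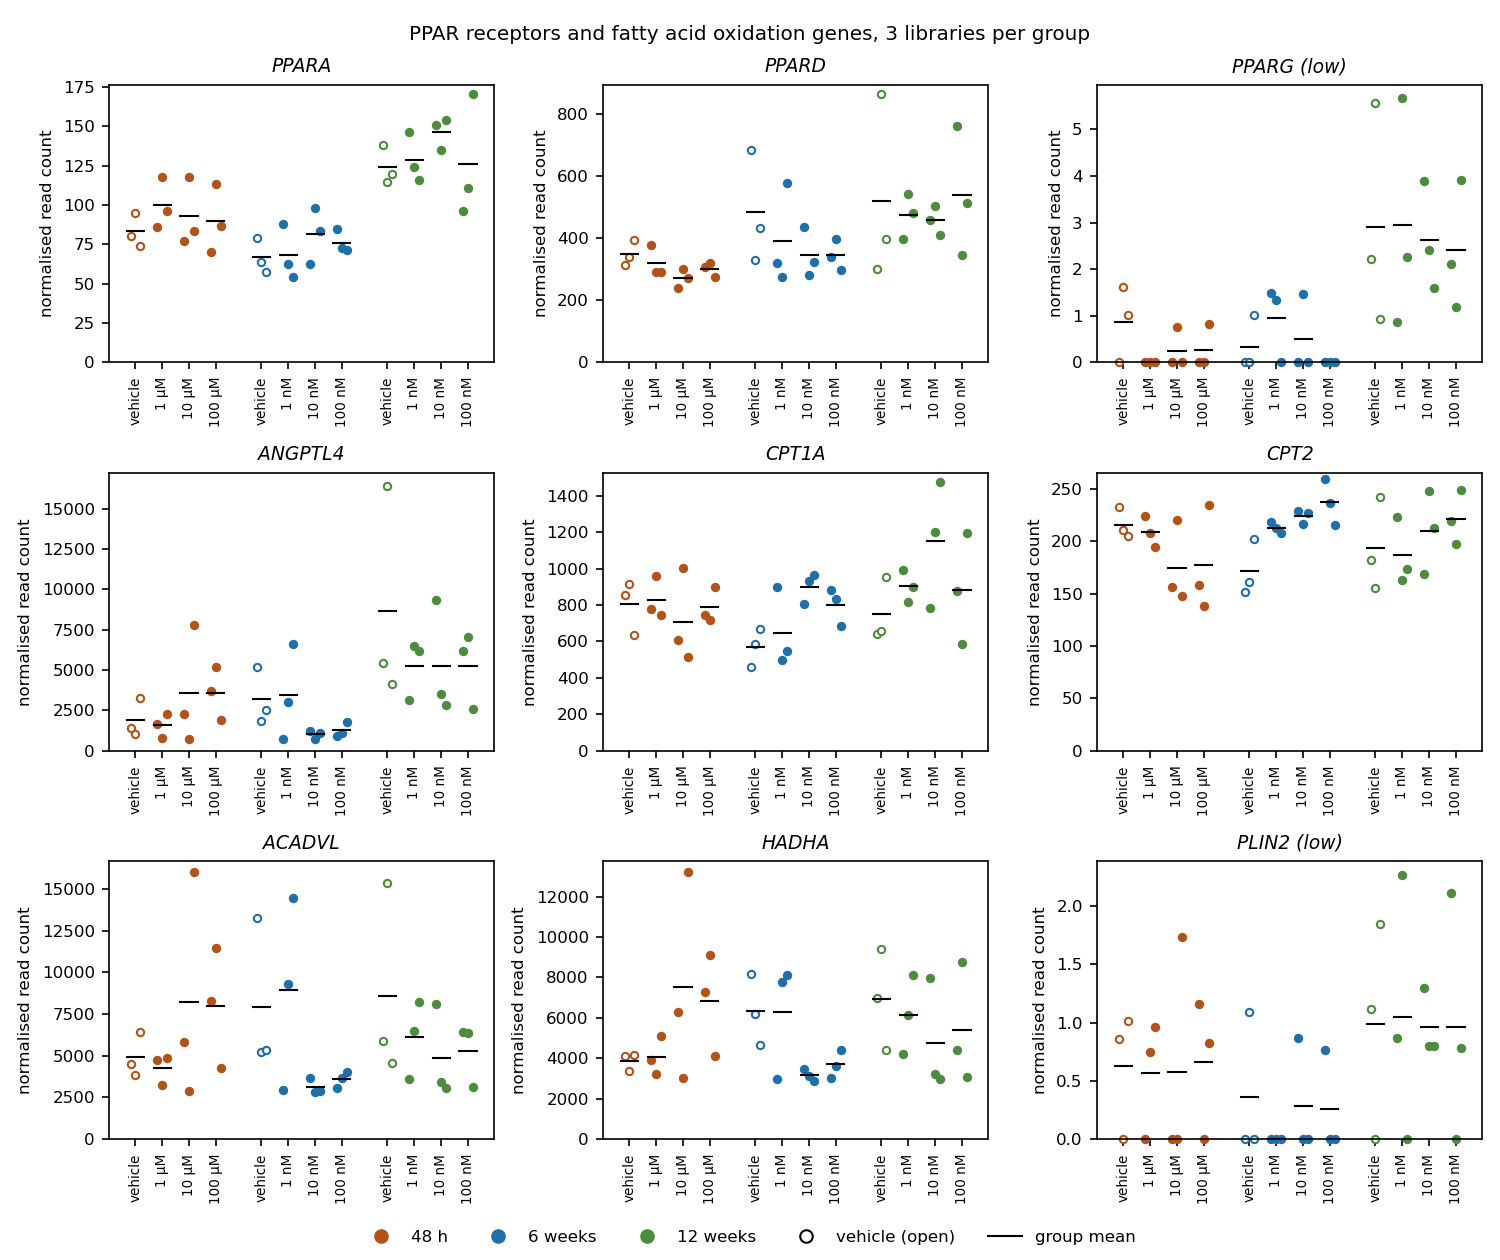
Normalised read count of each gene in every library, with vehicle (open) to the highest dose (filled) within each exposure time, and the group mean as a line. ANGPTL4, ACADVL and HADHA vary several-fold within many groups, and at 6 weeks their 10 and 100 nM libraries lie below the vehicle libraries.

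ANGPTL4 encodes a secreted inhibitor of lipoprotein lipase and is among the most responsive PPAR targets known in human cells. At 48 h its normalised read counts were 1437, 1029 and 3267 with vehicle, 1639.8, 819 and 2289.8 at 1 µM, 2276, 703 and 7789 at 10 µM, and 3726, 5179.8 and 1929 at 100 µM. The 10 µM group alone ran from the lowest to the highest of the 12 libraries. The mean at 100 µM was 3612 ± 1628, against 1911 ± 1192 with vehicle (SD, n = 3 each). That difference, 0.98 ± 0.78 on the log2 scale, was the largest of any tested member at 100 µM and did not pass (adjusted p = 0.99 in limma). The slope over the 4 concentrations, vehicle included, was 0.36 ± 0.25 per step (adjusted p = 0.81 in limma).

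The 6-week groups showed the opposite sign. ANGPTL4 was 5219, 1838 and 2521 with vehicle, 747, 2995 and 6631 at 1 nM, 1256, 700.2 and 1084 at 10 nM, and 939, 1095 and 1775 at 100 nM. On the deposited scale, the 10 and 100 nM libraries all lay below the vehicle libraries, while the 1 nM group reached both below and above them. As CPM, the 10 nM libraries stayed below, but those at 100 nM (65.1, 69.8 and 101.9) overlapped vehicle (166.4, 87.8 and 132.6). The fold change on the log2 scale was -1.55 ± 0.66 at 10 nM (adjusted p = 0.10 in limma) and -1.24 ± 0.66 at 100 nM (adjusted p = 0.27). At 12 weeks the values were 5458, 16439.7 and 4110.1 with vehicle, 3129, 6488 and 6213 at 1 nM, 9376, 3517 and 2825 at 10 nM, and 6181, 7053 and 2614 at 100 nM. All 3 doses overlapped the vehicle. At 1 nM the change of -0.52 ± 0.61 was the largest of the members (adjusted p = 1.0 in limma), and without vehicle replicate 2 it was 0.08.

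The carnitine shuttle brings long-chain fatty acids into the mitochondrion. CPT1A, the outer-membrane enzyme and the rate-limiting entry step, showed its clearest separation at 6 weeks. Its normalised read counts there were 459, 588 and 669 with vehicle, 899.5, 496 and 545 at 1 nM, 804, 934 and 967 at 10 nM, and 881, 831 and 683 at 100 nM. The 10 and 100 nM libraries all lay above the vehicle libraries. The log2 fold change was 0.67 ± 0.27 at 10 nM (adjusted p = 0.097 in limma) and 0.49 ± 0.27 at 100 nM (adjusted p = 0.27), and neither passed.

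At 12 weeks CPT1A was 639, 656 and 956 with vehicle, 991, 816 and 901 at 1 nM, 785, 1202 and 1475 at 10 nM and 875, 585 and 1194 at 100 nM. The group means were higher than vehicle at each dose, and every group overlapped it. At 48 h the 12 libraries ran from 513 to 1006, both ends in the 10 µM group, and the group means lay between 709 and 827.

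CPT2, the inner-membrane partner that returns the fatty acid to coenzyme A, varied little between libraries. At 6 weeks its normalised read counts were 152, 161 and 202 with vehicle, 218, 213 and 208 at 1 nM, 229, 217 and 227 at 10 nM, and 259, 237 and 216 at 100 nM. On the deposited scale, all 9 treated libraries lay above the 3 vehicle libraries. As CPM, the 1 nM libraries (15.5, 8.36 and 6.49) overlapped the vehicle libraries (4.84, 7.70 and 10.6), while those at 10 and 100 nM stayed above them. The log2 fold changes were 0.32 ± 0.21 at 1 nM (adjusted p = 1.0), 0.39 ± 0.21 at 10 nM (adjusted p = 0.15) and 0.47 ± 0.21 at 100 nM (adjusted p = 0.27), none of which passed in limma. The spread of CPT2 within groups at 6 weeks, 0.13 log2 units, was smaller than that of all but 1.41% of the tested genes. At 48 h its means went the other way without separating, with 175 ± 39.6 at 10 µM and 177 ± 51.2 at 100 µM, against 216 ± 14.5 with vehicle (SD, n = 3 each). At 12 weeks the vehicle libraries, from 156 to 243, spanned nearly the whole range of the 12.

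Inside the mitochondrion ACADVL, the very-long-chain acyl-CoA dehydrogenase, takes the first step of beta-oxidation, and HADHA, the alpha subunit of the trifunctional protein, carries out later ones. At 6 weeks ACADVL was 13276, 5199.7 and 5378 with vehicle, 2974, 9324 and 14482 at 1 nM, 3662, 2807 and 2864 at 10 nM, and 3039.6, 3683 and 4029 at 100 nM. HADHA was 8153, 6198 and 4666 with vehicle, 2998, 7773 and 8142 at 1 nM, 3491, 3113 and 2889 at 10 nM, and 3044, 3619 and 4421 at 100 nM. For both genes the 10 and 100 nM libraries all lay below the vehicle libraries on the deposited scale, and the 1 nM group overlapped them. As CPM, HADHA at 100 nM (211, 231 and 254) overlapped vehicle (260, 296 and 245).

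The log2 fold change of ACADVL was -1.22 ± 0.52 at 10 nM (adjusted p = 0.10 in limma) and -1.01 ± 0.52 at 100 nM (adjusted p = 0.27). That of HADHA was -0.97 ± 0.38 at 10 nM (adjusted p = 0.095 in limma) and -0.76 ± 0.38 at 100 nM (adjusted p = 0.27). In both the treated libraries were lower than every vehicle library in 3 of 3 replicates on the deposited scale, and neither passed after adjustment.

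At 48 h the same enzymes had higher means at the upper doses. HADHA was 6302, 3025 and 13228 at 10 µM and 7266, 9123 and 4127 at 100 µM, against 4095, 3363 and 4149 with vehicle. ACADVL was 5839, 2896 and 16005 at 10 µM and 8280.5, 11480.1 and 4243 at 100 µM, against 4481, 3840.0 and 6410.1 with vehicle. In each case 1 or 2 libraries of a dose lay above all vehicle libraries and the others within or below them, so the groups overlapped on the deposited scale. As CPM, HADHA at 100 µM (324, 344 and 266) lay above vehicle (247, 218 and 215). The HADHA change at 10 µM, 0.71 ± 0.48, was the largest of the members there (adjusted p = 0.96 in limma). It was 0.18 without replicate 3 and 1.25 without replicate 2 of that dose. At 100 µM the log2 fold changes were 0.75 ± 0.48 for HADHA and 0.62 ± 0.56 for ACADVL, both with an adjusted p of 0.99 in limma.

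At 12 weeks the largest member changes at 10 and 100 nM were those of ACADVL. It was 8131, 3454 and 3048 at 10 nM and 6417, 6351 and 3130.2 at 100 nM, against 5897, 15351 and 4567 with vehicle. The log2 fold changes were -0.76 ± 0.54 (adjusted p = 0.65 in limma) and -0.57 ± 0.54 (adjusted p = 0.75), and without vehicle replicate 2 they were -0.24 and -0.04. The vehicle library with 15351 was also the highest of the 12 for ANGPTL4, HADHA and PPARD.

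PLIN2 coats lipid droplets and is a PPAR target in many cell types. Here it gave 0 to 2 reads per library, 22 reads in all 36 libraries, and 17 libraries had none. Whether reads of this gene were lost in the authors' counting or gene set was not tested, so the near-zero value may not be the level in the cells. No group exceeded a normalised read count of 2.27 in any library, and each library with no read allows up to 3 reads. No difference was detectable from these reads. Its family member PLIN3, which coats early droplets, was read at 1766 to 5874 in every library.

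Counted over the 7 tested members, no change passed at an adjusted p under 0.05 in any of the 9 dose comparisons, and the same holds for all genes tested, with 0% called among the 12233 (48 h), 12201 (6 weeks) and 12304 (12 weeks) tested. At 6 weeks and 10 nM, edgeR on recovered reads also called 0 members, while DESeq2 called ANGPTL4, ACADVL and HADHA, with 3706 of all genes. A limma fit of the 10 nM and vehicle libraries alone called the same 3 members, with 4742 of all genes. At an unadjusted p under 0.05 in limma, 4 of 7 members differed at 6 weeks and 10 nM, and so did 44% of all genes. The 4 were CPT1A on the higher side, where 21.8% of all genes stood, and ANGPTL4, ACADVL and HADHA on the lower side, with 22.2%. At 100 nM CPT2, on the higher side, was the single member, against 12.2% of all genes and 5.66% on that side. In the other dose comparisons no member did. The share of all genes was 0.049%, 2.82% and 1.99% at 1, 10 and 100 µM for 48 h, 0.254% at 6 weeks and 1 nM, and 0.195%, 1.37% and 2.33% at 1, 10 and 100 nM for 12 weeks. On the deposited scale, at 6 weeks, treated and vehicle libraries of 5 members did not overlap at 10 nM (60.3% of all genes) and of 5 at 100 nM (47.3%). In both, CPT1A and CPT2 lay higher, as did 30.6% of all genes at 10 nM and 22.9% at 100 nM, and ANGPTL4, ACADVL and HADHA lower, as did 29.8% and 24.4%. On the same scale, the one member without overlap at 48 h and 10 µM was PPARD, on the lower side (6.19% of all genes, 3.52% on that side). At 6 weeks and 1 nM it was CPT2, on the higher side (1.31%, 0.754% on that side). No member was without overlap on the deposited scale at 48 h and 1 µM (2.31%) or 100 µM (10.8%), or at 12 weeks and 1, 10 or 100 nM (2.46%, 3.28% and 4.64%). The members' shares at 6 weeks are to be read against these backgrounds. With 3 libraries against 3 libraries, an exact permutation test of a single gene cannot go below p = 0.1.

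The slope over the 4 concentrations at 6 weeks had an unadjusted p under 0.05 for 5 of 7 members, against 44.6% of all genes, with 21.6% sloping up and 23.1% down. The slopes per step were -0.50 ± 0.21 for ANGPTL4, -0.43 ± 0.17 for ACADVL, -0.31 ± 0.12 for HADHA, 0.20 ± 0.09 for CPT1A and 0.15 ± 0.07 for CPT2. Their adjusted p-values lay between 0.098 and 0.11 in limma. Without replicate 1 of 1 nM, 4 members and 7084 of all genes passed an adjusted p under 0.05. That library had the lowest ANGPTL4 (747) of its group and a ribosomal protein share of 10.6%, against 16.9% and 17.6% in the other 1 nM libraries. At 48 h and at 12 weeks the slopes of 0 members had a p under 0.05, against 4.25% and 2.22% of all genes.

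**Figure D3:**
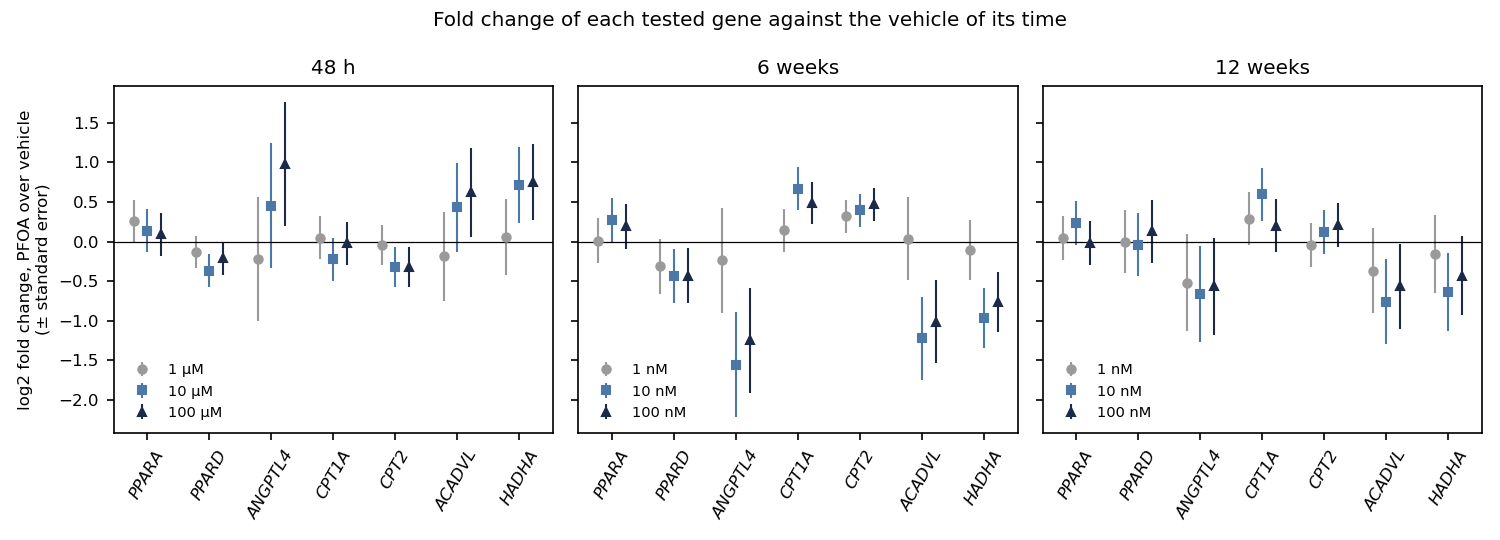
Log2 fold change of each tested gene against the vehicle of its time, with its standard error, for 3 doses at 48 h, 6 weeks and 12 weeks. At 6 weeks ANGPTL4, ACADVL and HADHA lie below 0 and CPT1A and CPT2 above 0 at 10 and 100 nM, while at 48 h ANGPTL4, ACADVL and HADHA lie above 0 at 10 and 100 µM.

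The same nanomolar doses were used at 6 and at 12 weeks, so the difference of the dose effects was tested as 12 weeks minus 6 weeks. None of the 7 members passed, and none had an unadjusted p under 0.05, against 0.208%, 0.349% and 0.565% of all genes at 1, 10 and 100 nM. The largest differences among the members were -0.40 ± 0.79 for ACADVL at 1 nM, 0.89 ± 0.96 for ANGPTL4 at 10 nM and 0.68 ± 0.96 for ANGPTL4 at 100 nM on the log2 scale. Adjusted p-values in limma were 1.0 at 1 nM, 0.91 at 10 nM and 1.0 at 100 nM. With standard errors of this size, a difference between the times was neither shown nor bounded closely.

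The pattern at 6 weeks moved with the composition of the libraries. At 10 nM the ribosomal protein share was 8.73% to 12.5%, against 16.0% to 17.9% with vehicle, and the mitochondrial share 5.99% to 7.82%, against 9.24% to 11.4%. The summed normalised read count of the 6 epithelial markers was 20568 to 40884 at 10 nM, against 74296 to 142645 with vehicle, with CDH1 at 0 in both. That of the 11 endothelial markers was 16037 to 18781, against 21692 to 49985, with CLDN5 at 0 in both. None of these ranges overlapped between the groups, and neither did those of 60.3% of all genes on the deposited scale. Each sum is led by its most abundant markers (KRT18 reached 103609 and EGFL7 40008), so it does not give the direction of every marker. At 100 nM the ribosomal protein share was 10.9% to 15.1%, the epithelial sum 28593 to 55545 and the endothelial sum 17132 to 19305, all below the vehicle libraries, with CDH1 and CLDN5 again at 0. At this dose 47.3% of all genes did not overlap the vehicle on the deposited scale. The mitochondrial share at 100 nM, 6.27% to 9.70%, overlapped that of the vehicle libraries. The part of the marker levels in the result was not tested.

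Across all 36 libraries, each centred on the mean of its table, the ribosomal protein share was compared with the log2 level of the 7 tested members. It went with HADHA at Pearson r = 0.917 (Spearman rho = 0.944), with ANGPTL4 at r = 0.910 (rho = 0.927) and with ACADVL at r = 0.882 (rho = 0.932). It went against CPT1A at r = -0.893 (rho = -0.916), CPT2 at r = -0.773 (rho = -0.794) and PPARA at r = -0.566 (rho = -0.528). For PPARD r was 0.190 (rho = 0.107). By a two-sided permutation test of 100000 draws, the adjusted p over the 7 relations was 1.4e-05 for the first 5 genes named, from the smallest raw p the draws can give, 1e-05. It was 0.000595 for PPARA (0.00164 for rho) and 0.284 for PPARD (0.541 for rho). The draws exchanged libraries within a table without regard to group. Only the 7 members were tested, so the p-values do not set them apart from other genes. Leaving out the 2 libraries farthest from the median share gave 0.910 for HADHA, 0.903 for ANGPTL4, 0.874 for ACADVL, -0.887 for CPT1A, -0.756 for CPT2 and -0.485 for PPARA.

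For ANGPTL4 and CPT1A the relation kept its direction within each time and within groups. For ANGPTL4 r was 0.963 at 48 h, 0.921 at 6 weeks and 0.862 at 12 weeks, and 0.892 once each group's mean was removed. For CPT1A r was -0.866, -0.958 and -0.870 at those times, and -0.933 within groups. As CPM, the reads scaled to a common library total without the size factors, r was 0.877 for ANGPTL4, 0.842 for ACADVL, 0.778 for HADHA and -0.929 for CPT1A. On that scale the r of PPARD was -0.677, so PPARD had no direction that held across scalings. Both measures come from the same libraries, so the relation describes those libraries. Whether the exposure had a part in the relation was not tested.

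**Figure D4:**
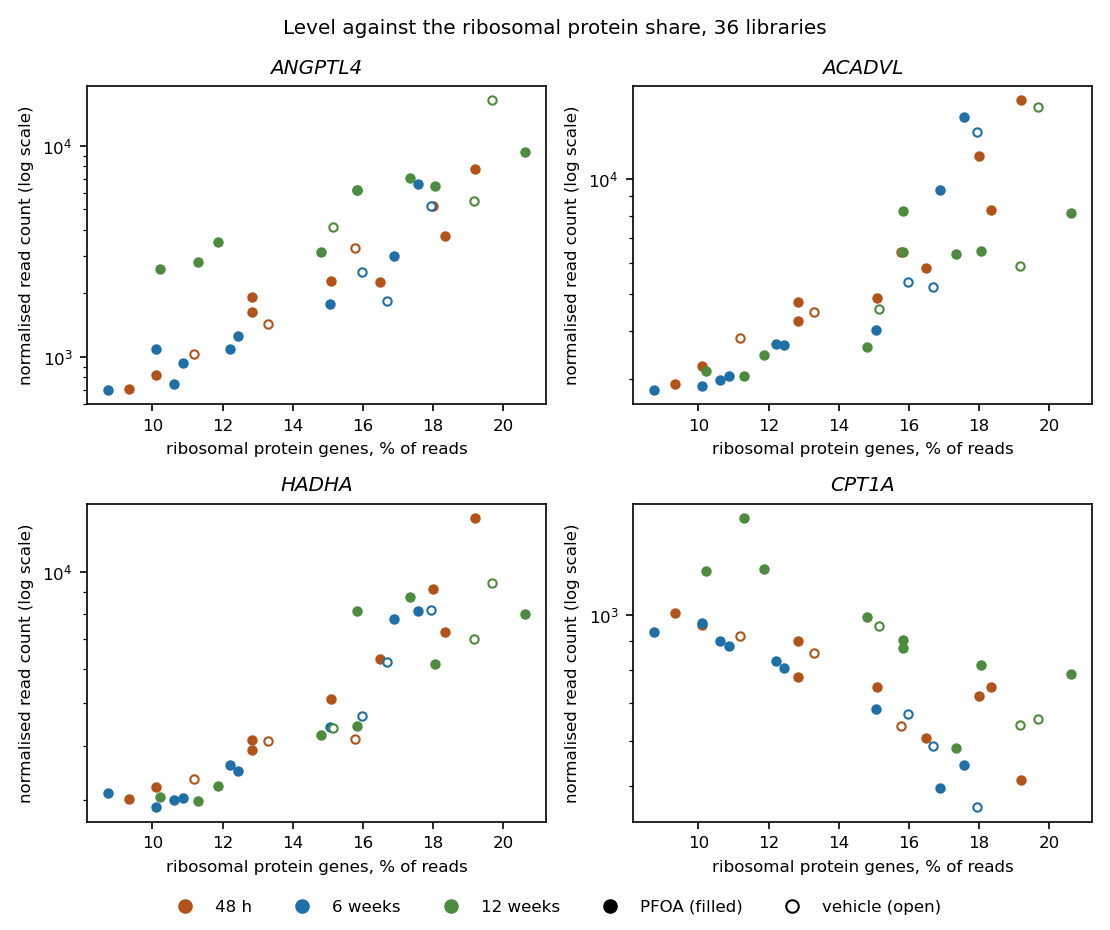
Normalised read count (log scale) of ANGPTL4, ACADVL, HADHA and CPT1A against the share of reads in ribosomal protein genes, in 36 libraries with PFOA filled and vehicle open. ANGPTL4, ACADVL and HADHA are higher and CPT1A lower in libraries with a larger share, with r of 0.910, 0.882, 0.917 and -0.893 after centring within tables.

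The members differed in their place on the first principal component of the within-group differences, with ANGPTL4 near its upper end and CPT1A, CPT2 and PPARA near its middle. Only 1.98%, 1.94% and 4.98% of the tested genes had a higher loading than ANGPTL4 at 48 h, 6 weeks and 12 weeks, and 11.1%, 10.7% and 9.74% a higher one than ACADVL. For HADHA 17.0%, 25.3% and 17.5% loaded higher, and for PPARD 47.2%, 33.0% and 34.5%. CPT1A, CPT2 and PPARA had loadings below 0 at each time, and 65.4% to 67.9%, 52.2% to 63.1% and 57.1% to 57.8% of the genes loaded higher than they did, in that order. Over all genes with a known transcript, the loading went with transcript G and C content at r = 0.673, 0.748 and 0.715 (11805, 11774 and 11867 genes, which are not independent). The members' longest transcripts had 63.3% G and C for ANGPTL4, 59.0% for PPARD, 58.8% for ACADVL, 50.8% for CPT1A, 49.4% for HADHA, 47.6% for PPARA and 38.5% for CPT2.

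At 6 weeks the scores on the first principal component were 14.6 to 113.8 with vehicle and -83.25 to -29.0 at 10 nM. At 100 nM they were -56.3 to -8.37, so neither dose overlapped the vehicle. A fit with this component therefore cannot tell a change with dose from one along the component. Once the first principal component was added to the model, the 6-week changes at 10 nM of ANGPTL4, ACADVL, HADHA and CPT1A were smaller than without it, while that of CPT2 moved less. The log2 fold change became 0.24 ± 0.20 for ANGPTL4, 0.15 ± 0.16 for ACADVL, -0.12 ± 0.21 for HADHA, 0.16 ± 0.17 for CPT1A and 0.29 ± 0.18 for CPT2, each with an adjusted p of 0.99 in limma. For CPT2 this fit gave 0.31 ± 0.14 at 1 nM and 0.39 ± 0.16 at 100 nM, both with an adjusted p of 1.0 in limma. The same fit at 48 h and 100 µM gave 0.45 ± 0.14 for HADHA (adjusted p = 0.20 in limma) and 0.46 ± 0.17 for ANGPTL4 (adjusted p = 0.23). There 16.8% of all genes had an unadjusted p under 0.05 in limma, against 1.99% without the component. As CPM, where the median over all genes was 0.61 (0.05 on the deposited scale), the changes at 6 weeks and 10 nM were 1.30 for CPT1A, 0.96 for CPT2, 0.75 for PPARA and 0.22 for PPARD, and -0.88 for ANGPTL4, -0.55 for ACADVL and -0.30 for HADHA. This scaling moved the median of all genes, but not every gene by the same amount. Relative to the median of all genes, PPARD was at -0.49 on the deposited scale and -0.39 as CPM, ANGPTL4 at -1.61 and -1.49, HADHA at -1.02 and -0.92, and CPT1A at 0.61 and 0.68. Of all genes with an unadjusted p under 0.05 at 10 nM, 78.8% were higher as CPM, against 49.6% on the deposited scale.

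**Figure D5:**
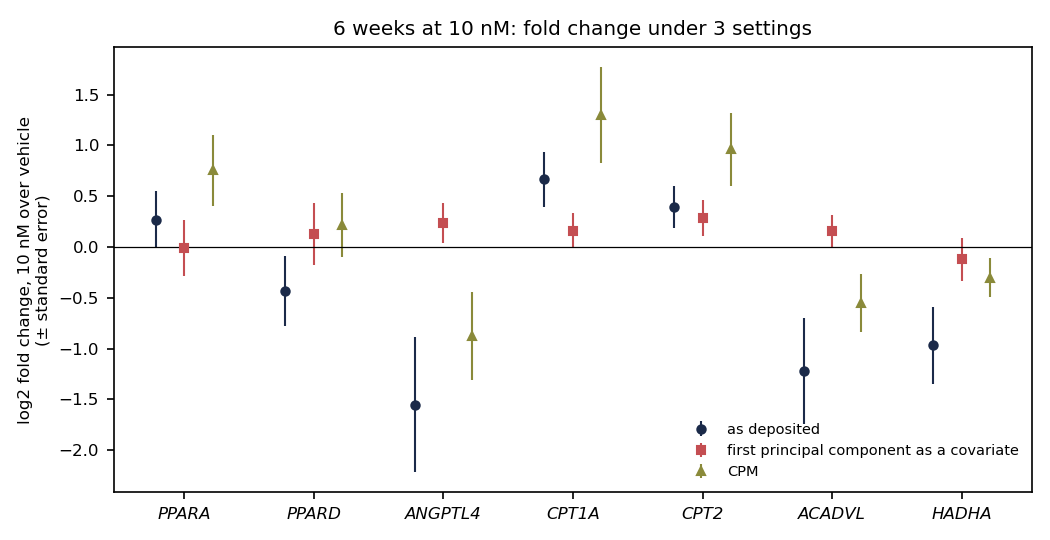
Log2 fold change of the 7 tested genes at 6 weeks and 10 nM over vehicle, with standard errors, as deposited, after adjustment for the first principal component and as reads scaled to a common library total (CPM). After that adjustment every gene lies between -0.12 and 0.29, against -1.55 to 0.67 as deposited. The scores on that component do not overlap between the 10 nM and vehicle libraries.

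The wider pathway list held 86 genes of PPAR signalling and fatty acid oxidation, of which 68 averaged at least 10 in each table. At an adjusted p under 0.05 in limma 0 of the tested list genes were called in any comparison. At 6 weeks and 10 nM, 14 were higher and 18 lower at an unadjusted p under 0.05, so 32 of 68, against 44% of all genes. Their median log2 fold change was -0.29, against 0.05 for all genes. At 12 weeks and 10 nM 1 of the 68 tested at that time had such a p (1.37% of all genes). At 48 h and 100 µM 0 of the 68 tested there did (1.99%), with a median of 0.12 against 0.03 for all genes.

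The groups within the list did not share 1 direction at 6 weeks and 10 nM, where 21.8% of all genes were higher and 22.2% lower at an unadjusted p under 0.05. Among 7 tested coregulators, 6 had fold changes above 0 and 5 of those a p under 0.05, with a median of 1.06. Of 15 mitochondrial beta-oxidation genes 6 lay above and 9 below 0, and 2 and 5 of these had a p under 0.05. The 7 genes of the carnitine shuttle split into 2 higher and 3 lower at that p. In the peroxisomal set of 12 there were 3 higher and 1 lower, and in fatty acid uptake and activation, with 9 tested, 2 higher and 3 lower. Of 7 lipid droplet genes 2 were lower and 0 higher, and of 7 other targets 3 were lower and 0 higher. As CPM the list split into 20 higher and 6 lower of 68 at that p, where 39.9% of all genes were higher and 10.7% lower, and the coregulator count was 6 higher. Relative to the median of all genes, the median of the coregulators was 1.01 on the deposited scale and 0.79 as CPM. That of mitochondrial beta-oxidation was -0.56 and -0.46 on these scales, and that of the lipid droplet genes -1.29 and -0.85.

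Outside the members, the 3 smallest p-values of the list at 6 weeks and 10 nM belonged to CPT1B, the muscle form of the carnitine enzyme, to ACOX2, a peroxisomal oxidase of bile acid precursors and branched-chain fatty acids, and to ETFB, which passes electrons from the dehydrogenases to the respiratory chain. CPT1B was 286, 205 and 231 at 10 nM, against 834, 426 and 607 with vehicle. ETFB was 2531, 1531 and 1676 at 10 nM, against 10817, 5265 and 4373 with vehicle. Their log2 fold changes were -1.33 ± 0.39 and -1.75 ± 0.60, that of ACOX2 was -1.10 ± 0.35, and all 3 had an adjusted p of 0.095 in limma. The sign of CPT1B was opposite to that of CPT1A in the same libraries. At 100 nM the 3 were PPARGC1B, a PPAR coactivator, at 1.03 ± 0.40, UCP2, a mitochondrial carrier, at -1.48 ± 0.57, and ACOX2 at -0.86 ± 0.35, each with an adjusted p of 0.27.

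At 48 h the 3 smallest p-values at 100 µM were those of CREB3L3, FABP4 and PEX19. FABP4, a fatty acid carrier and a PPAR target in fat and endothelial cells, was 54.7, 49.1 and 47.2 at 100 µM, against 75.2, 62.1 and 73.1 with vehicle, so the groups did not overlap. PEX19, which guides membrane proteins to peroxisomes, was 884, 1014 and 748 at 100 µM, against 696, 731 and 577 with vehicle, also without overlap. At this dose 4 of the 68 list genes did not overlap with vehicle, against 10.8% of all genes. CREB3L3, a liver transcription factor of lipid metabolism, was near the detection limit at 17.5, 28.7 and 5.79, against 2.59, 13.7 and 2.03. All had an adjusted p of 0.99 in limma. At 12 weeks and 100 nM IMPA2, an inositol phosphatase, had a log2 fold change of -1.16 ± 0.47, and ACADS, the short-chain dehydrogenase, was 32.8, 28.3 and 15.7 at 100 nM, against 36.7, 122 and 37.8 with vehicle. Neither overlapped its vehicle, as was the case for 4.64% of all genes, and both had an adjusted p of 0.75 in limma.

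The genes whose levels followed ANGPTL4 most closely over the 36 libraries, by the root mean square difference of centred log2 values, were CAPG at 0.16, ZNF385A at 0.18 and KRT7 at 0.19. The median over 5492 genes of enough spread was 1.18. For CPT1A they were CERK at 0.11, COPA at 0.12 and KCTD20 at 0.13, against a median of 0.52 over 10199 genes. KRT7 is also 1 of the epithelial markers above. None of these 6 genes is on the pathway list.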

How the data were processed

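The authors' deposited values are a signal per gene, read counts divided by a size factor per library, in 1 table for each of 3 exposure times. Per the submitters' processing notes HISAT, Bowtie2, DESeq2 and GRCh38.p14 were used. Counting tool and strandedness: not given in the sources used here. Whole reads were recovered from the values, with 100% within 0.01 of a whole multiple of each library's step. Of 47137 genes listed, 18048 had values. The 6-week table had 1 entry without a gene name or value, which was dropped.

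Log2(signal + 1) was tested with limma (version 3.58.1, trended variance, two-sided, R 4.3.3) over the 12 libraries of a table, for genes with a mean of at least 10. The Benjamini-Hochberg adjustment ran over all tested genes, with a threshold of 0.05. The difference between times used 24 libraries and 12037 genes. Fold changes on this scale understate those of low genes. The limma fit was also run on simulated counts. These were drawn without a component shared by libraries, so that run cannot speak to calls along the first principal component. edgeR 4.0.16 and DESeq2 1.42.0 on recovered reads, other pseudocounts (0.1 and 10), filters (none, 50), quantile normalization, a replicate block, the first principal component, only the groups compared and each library left out were alternatives. CPM from the recovered reads was added after seeing the data. Replicates are biological per the labels, without further detail.

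The members and lists were chosen with earlier results of these data known. Fold changes are given for a member with an unadjusted p under 0.05, with groups that do not overlap, or with the largest change of a comparison, together with values beside these for context, and for the 3 list genes with the smallest p per comparison, of which part are printed. Promoters are from RefSeq on GRCh38.p14, matched by symbol for 9 of 9 members. Lengths and G and C content are from GENCODE release 29.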

Additional observations from a re-analysis of the deposited data

How the results depend on the processing

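Of 548 recomputed values of the 28 named member changes, 515 kept their direction and side of the threshold, 20 changed sign and 13 passed where the reported fit did not. None of the reported fits passed, so a kept call is not a sign of stability. DESeq2 on recovered reads called 3706 genes and 3 members (ANGPTL4, ACADVL and HADHA) at 6 weeks and 10 nM, 3174 genes and 3 members for the 6-week slope, 2 genes each at 6 weeks 1 nM, 12 weeks 10 nM and the 12-week slope, and 1 gene each at 48 h 1 µM, 48 h 10 µM and 12 weeks 100 nM. Its adjusted p-values at 10 nM were 0.0377 for ANGPTL4, 0.0383 for ACADVL and 0.0378 for HADHA, against 0.0921, 0.0913 and 0.0901 in edgeR, and 0.0189 to 0.999 over all alternatives for ANGPTL4. Fitting only the groups compared called 4742 genes and 3 members at 10 nM, and quantile normalization 1 gene for the 6-week slope. Leaving out each library gave 0 to 1 genes at 6 weeks 1 nM, and 0 to 7084 genes and 0 to 4 members for the 6-week slope. The cause of these differences was not tested.

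At 6 weeks the first principal component separated vehicle from 10 and 100 nM, so fits with it cannot tell dose from component. With the first principal component, changes turned sign at 6 weeks for ANGPTL4 (0.238 at 10 nM, 0.12 at 100 nM, slope 0.0625) and ACADVL (0.154, 0.0278 and slope 0.0048), and at 12 weeks for ACADVL (0.0637 at 100 nM, slope 0.0186). With the replicate block and that component they were 0.147, 0.0476 and slope 0.0336 for ANGPTL4 and 0.19, 0.0547 and slope 0.016 for ACADVL at 6 weeks, and 0.00033 at 10 nM, 0.0849 at 100 nM and slope 0.0262 for ACADVL at 12 weeks, with 1 gene called for the 6-week slope. Leaving out each library gave -0.92 to 0.0824 for ANGPTL4 at 12 weeks 1 nM and -1.06 to 0.12 for ACADVL in the 1 nM difference between times. With the replicate block alone ANGPTL4 at 6 weeks and 10 nM was -1.55 ± 0.67 (adjusted p = 0.15 in limma), and no call changed. Replicate numbers showed no consistent pairing, with a median correlation of same-numbered libraries of 0.02 at 48 h, -0.20 at 6 weeks and -0.40 at 12 weeks. Single pairs ran from -0.89 to 0.89 at 48 h. The first principal component held most of this variance, so these correlations cannot decide whether numbers mark shared batches. Of 84 member levels, 5 moved by more than 1 SD, all under quantile normalization. As CPM the share of higher genes among those with an unadjusted p under 0.05 at 6 weeks and 10 nM was 78.8%, against 49.6% as deposited. With 3 libraries per group, log2 standard errors of 0.52 to 0.78 for ANGPTL4 and ACADVL limited what could be shown. The few reads of PPARG and PLIN2 gave no comparison of doses.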

Other observations

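Several genes often used to read PPAR activity had next to no reads in these libraries. Whether the authors' counting or gene set lost reads of such genes was not tested. PDK4, which slows glucose oxidation, reached at most 0.75 normalised read counts in any library, and CYP4A11 at most 1.16. The fatty acid transporter CD36 stayed at or below 2.36, PLIN5 at or below 2.6 and the coactivator PPARGC1A at or below 3.70. The RXR partners split, with RXRA at 493 to 1821 and RXRB at 663 to 2717, while RXRG did not exceed 3.41.

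Lipid handling genes that were well read included the lipase PNPLA2 (1368 to 11961), its activator ABHD5 (313 to 954), FABP5 (598 to 2466) and the acyl-CoA synthetase ACSL4 (428 to 5493). ECI2, an isomerase of unsaturated fatty acid oxidation, was listed at 876 to 1527 in the 12-week table, against 2409 to 4323 in the 6-week table. HSD17B4, of the peroxisomal pathway, averaged 543 in the 12-week table, against 1198 in the 6-week table. These levels between tables include vehicle and treated cells and were not tested.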
